A study of Mus musculus with 3 samples.

Results

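Hepatic stellate cells are the pericytes of the liver: they lie in the space between the sinusoidal endothelium and the hepatocytes, store vitamin A as retinyl esters in lipid droplets, and lay down matrix when they become activated. They also secrete signals to their neighbours, among them hepatocyte growth factor and the bone morphogenetic proteins BMP9 (gene Gdf2) and BMP10. BMP signals reach hepatocytes and set their output of hepcidin, the hormone that closes the iron exporter ferroportin, so this cell type sits next to the circuit that the study asks about. The members were chosen by measured values: a cell was taken as stellate where Colec11, Reln, Dcn, Col14a1, Lrat and Pth1r, summed, reached 10 unique molecular identifiers (UMIs, counted RNA molecules) per 10000 and at least 2 UMIs, with the Kupffer genes Clec4f, Vsig4 and Cd5l and the endothelial genes Stab2, Clec4g and Dnase1l3 each summing to under 20 per 10000. Barcodes with 1000 UMIs or more, 300 genes or more and no more than 20% of UMIs from mitochondrial genes counted as cells, and 331 of these 8087 met the rule.

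The 3 libraries each came from the liver of 1 wild-type mouse, and all 3 mice had eaten a diet with 2 to 6 ppm iron for 1 week. The IDD mouse stayed on that diet as the control, the IDD+HTF mouse received 10 mg holo-transferrin, the iron-loaded plasma carrier, into a vein (the time to collection is not in the labels), and the IDD+HID mouse was moved to food with 2% carbonyl iron for 18 h. Age, sex and strain are not in the labels. Livers were perfused and digested, a small part of the hepatocyte suspension was mixed into the non-parenchymal cells, and 10x Chromium 3′ libraries were made, so shares of cells depend on digestion and mixing as well as on the liver. Each condition is thus a single animal, so differences between mice cannot be told apart from those between treatments, there is no test of any difference, and every interval below is a 95% interval for counting error alone. Both comparisons with IDD share that library, so they are not independent of each other.

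The libraries held 1334, 3208 and 3545 cells in the order IDD, IDD+HTF, IDD+HID, and each pair of libraries shared 1 cell barcode, none of it among stellate cells. In IDD the rule took 119 cells, a share of 8.92% (Clopper-Pearson interval 7.45 to 10.6). It took 108 cells in IDD+HTF, or 3.37% (2.77 to 4.05), and 104 in IDD+HID, or 2.93% (2.40 to 3.54). Near the limit, 3, 5 and 1 members lay between 10 and 20 per 10000, while 3, 3 and 5 cells with at least 2 UMIs lay outside at 5 to 10. The lowest member of each library stood at 10.2, 11.02 and 16.1 per 10000 and the highest cell left outside at 6.39, 8.36 and 8.84. Another 4, 16 and 15 cells carried enough of the stellate genes but were left out for Kupffer genes, and 31, 61 and 52 for endothelial genes.

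The label held for most members but not for all. Colec11, Reln, Lrat and Pth1r, which leave out the broadly mesenchymal Dcn and Col14a1, reached 10 per 10000 in 112, 87 and 70 cells, together 269, called stellate-gene cells below. In these, the 16 stellate markers that the rule did not use (Ecm1, Hgf, Angptl6, the transcription factors Tcf21, Lhx2 and Hand2, and others) were all detected in every library and summed to 11868, 16281 and 16200 CPM (UMIs of the genes per 1000000 UMIs), against 160, 243 and 248 in droplets of at most 100 UMIs. The other 62 members (7, 21 and 34 by library) met the rule through Dcn or Col14a1, and the same 16 markers summed to 2031, 1560 and 1271 CPM in them. Fibroblast and mesothelial markers, 14 genes such as Dpt, Clec3b, Msln and Upk3b, reached 10 per 10000 in 6 of 7, 15 of 21 and 32 of 34 of these cells, but in 2 of 112, 3 of 87 and 2 of 70 stellate-gene cells. The 62 cells therefore go by the genes that admitted them, Dcn or Col14a1 cells.

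**Figure D1:**
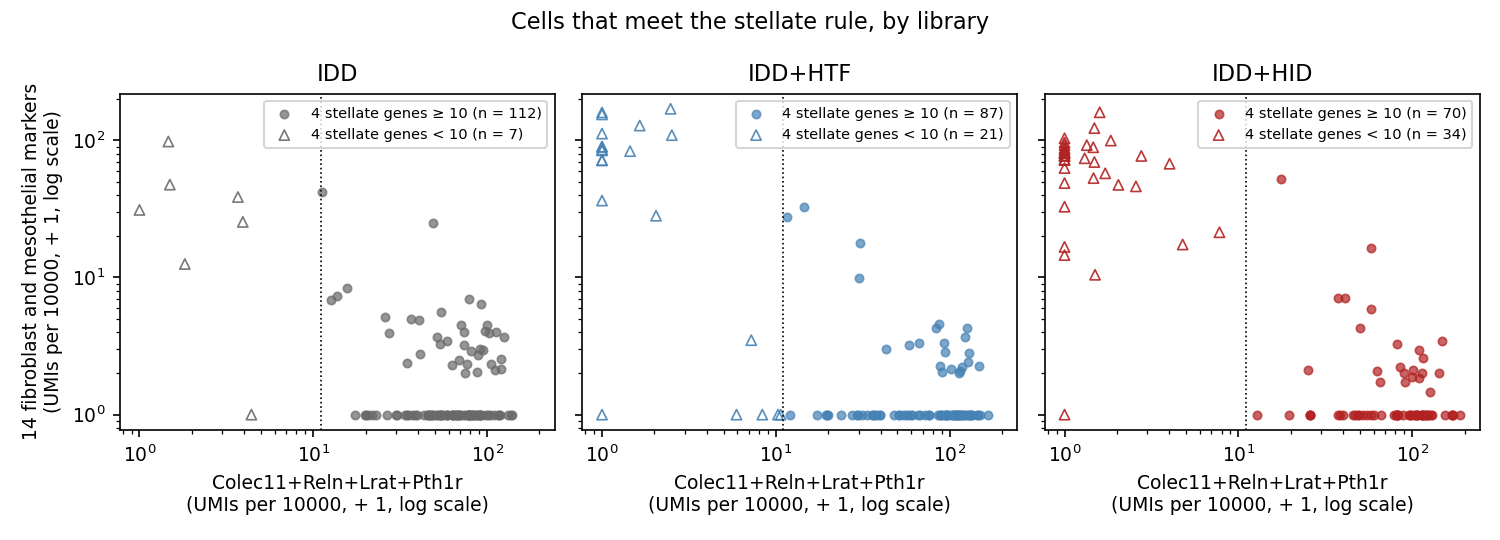
Each point is a cell that met the stellate rule, with the sum of Colec11, Reln, Lrat and Pth1r (x) and of 14 fibroblast and mesothelial markers (y), both in UMIs per 10000 plus 1 on log scales, and the dotted line marks 10 per 10000. Filled circles (112, 87 and 70 cells) sit low on the y axis with few exceptions, while most open triangles (7, 21 and 34 cells) sit at upper left and grow in number from IDD to IDD+HID.

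The split matters because the Dcn or Col14a1 cells were deep, with medians of 10242, 13518 and 19043 UMIs, and held 13.7%, 32.7% and 55.7% of all members' UMIs (IDD, IDD+HTF, IDD+HID). A gene entered a comparison where its UMIs summed to 100 or more over both libraries, and it was called by size, at 1.5-fold or more. Over all 331 members, 19.6% of 2256 genes were called higher and 10% lower in IDD+HTF than in IDD. In IDD+HID over IDD these shares were 30.9% and 20.1% of 2938 genes, and in IDD+HID over IDD+HTF 15.8% and 12.2% of 3254 genes. In the 269 stellate-gene cells the shares were 16.8% higher and 8.58% lower of 1538 genes (IDD+HTF over IDD), 26% and 14.5% of 1540 (IDD+HID over IDD), and 14.5% and 10.6% of 1569 (IDD+HID over IDD+HTF). Several directions turn with the choice of cells: Gdf2, Bmp10 and Ngfr were each over 1.5-fold lower in IDD+HID than in IDD over all members, but at log2 0.27, 0.11 and 0.19 in the stellate-gene cells. The values that follow are from the stellate-gene cells, a choice made after these values were seen, in CPM and in the order IDD, IDD+HTF, IDD+HID.

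The 269 cells differed between libraries in more than single genes. Their median depth was 3899, 5398 and 6945.5 UMIs, for totals of 494525, 493161 and 474446. Ribosomal protein genes took 1.21%, 1.84% and 3.0% of UMIs, the nuclear RNAs Malat1 and Neat1 5.22%, 3.30% and 3.67%, ribosomal RNA and repeats 1.12%, 0.462% and 0.366%, and mitochondrial genes 6.29%, 3.95% and 5.31%. Hepatocyte markers summed to 1102, 1610 and 1794 CPM, or 7.92%, 5.72% and 5.94% of their level in droplets of at most 100 UMIs, and scaled to other genes those shares give the most that free RNA of that makeup could bring. That bound is for the summed cells. Hepatocyte markers reached 50 per 10000 in 8 of 112, 7 of 87 and 11 of 70 stellate-gene cells.

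Ratios moved with transcript length. Genes were put into 3 bins of equal size by their longest annotated coding transcript. In IDD+HID over IDD the median log2 ratio was 0.70 in the short bin (up to 2378 bases, 475 genes), 0.05 in the middle bin and −0.23 in the long bin. In the short bin 57.3% of genes were called higher and 4.42% lower, and in the long bin 5.26% and 18.5%. In IDD+HTF over IDD the 3 medians were 0.33, 0.08 and −0.12. Other classes were read for those of the 1425 genes of IDD+HID over IDD with 50 UMIs or more in the pair there. These were 1417 in sinusoidal endothelial cells and 1310 in Kupffer cells. Their medians in IDD+HID over IDD were 0.41, 0.10 and −0.02 in the endothelial cells, and 0.17, 0.27 and 0.30 in the Kupffer cells. Once each ratio was set against the median of its own bin, 241 of 1425 genes in IDD+HID over IDD were called higher and 212 lower, and 161 and 131 of 1415 in IDD+HTF over IDD. The length-adjusted counts of gene lists given below stand beside these counts over all genes. The part of this pattern in any single gene was not tested, and length-adjusted values are given beside several of the genes it touches.

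**Figure D2:**
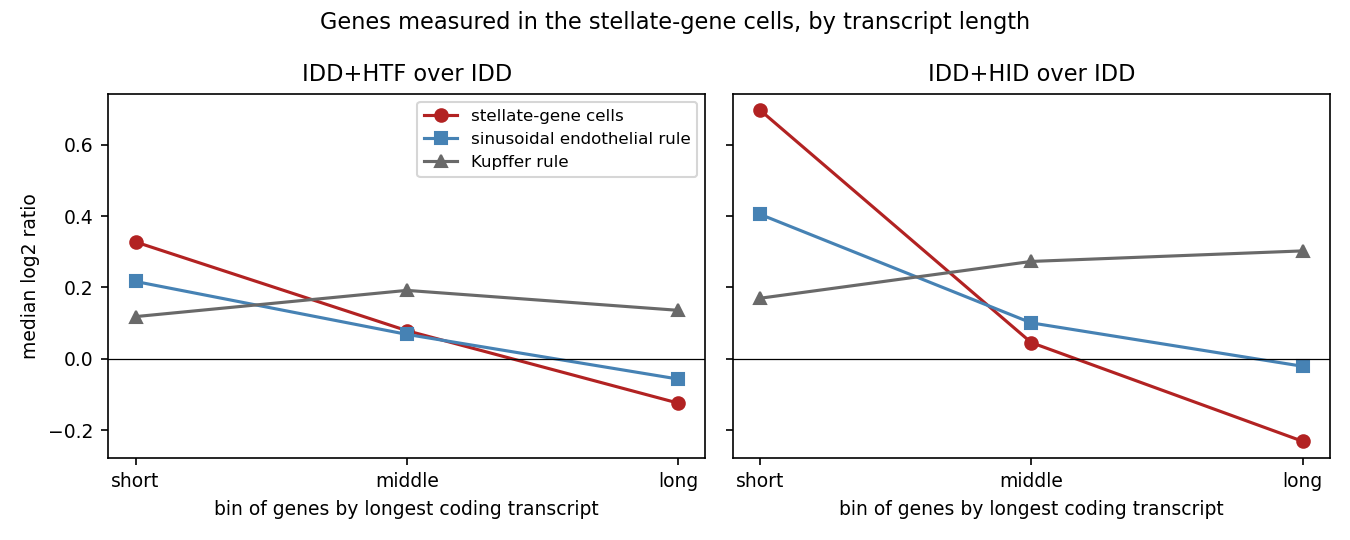
Median log2 ratio of CPM (y) of the genes measured in the stellate-gene cells, in 3 bins by longest coding transcript (x), for each comparison in 3 cell classes. The endothelial and Kupffer lines leave out genes too sparse in those cells. In IDD+HID over IDD the stellate-gene line falls from 0.70 to −0.23 and the endothelial line from 0.41 to −0.02, while the Kupffer line climbs from 0.17 to 0.30.

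The genes that define the class were not uniform across libraries. Those of the rule are described only, since they chose the cells. Colec11, a secreted collectin, stood at 1666, 3281 and 4346, Dcn, the proteoglycan decorin, at 10978, 17114 and 19730.4, Reln, the matrix protein reelin, at 2359.8, 2646 and 2432, and Pth1r, the parathyroid hormone receptor, at 1337, 1857 and 1745. Lrat, the enzyme that esterifies retinol for storage, ran the other way at 2137, 1661 and 1142.

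Among the 16 markers outside the rule, 15 were measured, and the calls over IDD were 4 higher and 3 lower in each of IDD+HTF and IDD+HID. Of all genes tested, 16.8% were higher and 8.58% lower in IDD+HTF, and 26% and 14.5% in IDD+HID. The list's median log2 was 0.23 and 0.37, against 0.07 and 0.08 over all genes tested, and after length adjustment 3 were higher and 4 lower in each. Ecm1, a secreted protein that restrains latent TGF-beta (ENSMUSG00000028108.15, chromosome 3, 95734147 to 95739569), stood at 4299, 8784 and 8092, 2.04-fold (1.94 to 2.15) and 1.88-fold (1.78 to 1.99) higher than in IDD. Its length-adjusted log2 was 0.70 in IDD+HTF and 0.22 in IDD+HID, the latter under 1.5-fold. Angptl6, a secreted angiopoietin-like factor (ENSMUSG00000038742.7, chromosome 9, 20873808 to 20879727), was at 289, 576 and 965, 1.99-fold (1.62 to 2.45) and 3.34-fold (2.76 to 4.06) higher. Both genes had their lowest level in IDD.

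Retinoid and lipid droplet genes differed mainly in IDD+HID. Rarres2, which encodes the chemokine-like chemerin, was at 196, 371 and 736, 3.75-fold (2.99 to 4.75) higher in IDD+HID than in IDD. Plin2, which coats lipid droplets, was 1.59-fold (1.17 to 2.19) and the lipase Lpl 1.69-fold (1.23 to 2.35) higher, while Aldh1a1, which oxidises retinal, was 1.53-fold (1.05 to 2.25) lower. Of 27 retinoid and lipid droplet genes 5 were measured in IDD+HID over IDD, 4 higher and 1 lower, and 6 in IDD+HTF over IDD, 2 higher and 0 lower. The share of all genes called was 26% higher and 14.5% lower in the first of these and 16.8% and 8.58% in the second. After length adjustment 3 of 5 were higher and 1 lower in IDD+HID, and 1 of 6 higher in IDD+HTF.

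Single receptors stood apart in both directions. Before length adjustment the list as a whole was called about as often as all genes, or less, and after it more often. Ramp1, the partner subunit of the CGRP receptor (ENSMUSG00000034353.14, chromosome 1, 91179822 to 91225196), was at 198, 517 and 826, 2.61-fold (2.06 to 3.33) higher in IDD+HTF and 4.17-fold (3.33 to 5.26) in IDD+HID. Ednrb, the endothelin B receptor (ENSMUSG00000022122.15, chromosome 14, 103814625 to 103844402), was at 425, 1069 and 965, 2.52-fold (2.14 to 2.97) and 2.27-fold (1.93 to 2.69) higher, with a length-adjusted log2 of 1.25 and 1.14. Vipr1, a receptor for vasoactive intestinal peptide (ENSMUSG00000032528.5, chromosome 9, 121642716 to 121672954), was at 1662, 961 and 681, 1.73-fold (1.54 to 1.94) lower in IDD+HTF and 2.44-fold (2.14 to 2.79) lower in IDD+HID. For these 3 genes no counting intervals of IDD and another library overlapped. Of 38 receptor genes, 24 were measured in IDD+HTF over IDD, with 5 higher and 1 lower beside 16.8% and 8.58% of all genes. In IDD+HID over IDD 23 were measured, with 3 higher and 2 lower beside 26% and 14.5%. Adjusted for length, 7 were higher and 3 lower of 24, and 5 and 4 of 23. Among all genes the adjusted counts were 161 and 131 of 1415, and 241 and 212 of 1425.

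Other stellate and pericyte genes were lower in both iron-given mice. Rgs5, a pericyte regulator of G-protein signals, stood at 3367, 2026 and 1719.9, 1.66-fold (1.54 to 1.8) and 1.96-fold (1.8 to 2.13) lower than in IDD. Cygb, the stellate globin cytoglobin, was at 823, 517 and 499.5, 1.59-fold (1.36 to 1.87) and 1.65-fold (1.4 to 1.94) lower. Colec10, a collectin, was at 2016, 1426 and 835, 2.42-fold (2.15 to 2.72) lower in IDD+HID. The lineage transcription factors Tcf21 and Hand2 stood at 534, 434 and 457 and at 354, 326 and 470.0, under 1.5-fold apart in either comparison with IDD, and Lhx2 at 243, 353 and 373, 1.54-fold (1.21 to 1.95) higher in IDD+HID.

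Among matrix genes a larger share was called higher, and a smaller share lower, than among all genes tested. Over all genes these shares were 16.8% and 8.58% in IDD+HTF and 26% and 14.5% in IDD+HID. The difference from all genes was not tested. Of 26 fibrillar collagen and activation genes 18 were measured: 6 were higher and 0 lower in IDD+HTF than in IDD, and 7 and 1 in IDD+HID, with median log2 of 0.35 and 0.34. The 6 include Acta2, whose level rests mostly on 1 cell (next paragraph). The 7 include the activation genes Lgals1 and Vim, and the 1 lower was Tagln. Col1a2 was at 586, 1269 and 1081, 2.16-fold (1.88 to 2.5) and 1.84-fold (1.59 to 2.14) higher, whereas its partner chain Col1a1, at 329.6, 353 and 407, was not past 1.5-fold. Col3a1, the type III collagen chain, was at 1306, 1884 and 2243, and Sparc, a collagen-binding matrix protein, at 2097, 3467 and 4489, 2.14-fold (1.99 to 2.31) higher in IDD+HID. Adjusted for length, the log2 in IDD+HID over IDD was 1.01 for Col3a1, whose transcript is long, and 0.40 for Sparc, under 1.5-fold. Of 28 basement membrane and matrix turnover genes 17 were measured, with 5 higher and 0 lower in each comparison with IDD, among them Col4a2 (1.82-fold) and the linker Nid1 (1.71-fold) in IDD+HTF and the protease Adamts1 (1.71-fold) in IDD+HID. After length adjustment the fibrillar list had 6 higher and 0 lower of 17 in IDD+HTF and 5 and 2 in IDD+HID, and the basement membrane list 4 and 0 of 15, and 7 and 0.

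Some contractile genes had their highest level in IDD+HTF, in part through single cells. Of 23 contraction and cytoskeleton genes 22 were measured in IDD+HTF over IDD, 7 higher and 3 lower beside 16.8% and 8.58% of all genes. The 7 include Acta2 and Tpm2, which fell under 1.5-fold without the top cells, as given below. In IDD+HID over IDD 19 were measured, 4 higher and 1 lower, beside 26% and 14.5%. Length adjustment gave 5 higher and 2 lower of 21, and 2 and 3 of 18. Ccn2, a matricellular target of TGF-beta and YAP (ENSMUSG00000019997.11, chromosome 10, 24595442 to 24598683), was at 89, 389 and 137, 4.38-fold (3.14 to 6.22) higher in IDD+HTF than in IDD and 2.84-fold (2.13 to 3.83) higher than in IDD+HID. The top cell held 9.38% of its UMIs in IDD+HTF, and without the top cell of each library the first ratio was 4.76-fold. Acta2, smooth muscle actin and the classic mark of activated stellate cells, read 46.5, 296 and 27.4, but 1 cell held 65.2%, 95.2% and 92.3% of its UMIs. Without the top cells its ratio of IDD+HTF over IDD fell from 6.37-fold to 0.892-fold, so its level describes 1 cell of 87. For Tpm2, a tropomyosin, the ratio went from 2.48-fold to 1.41-fold in the same way, and for the myosin light chain Myl9 from 3.26-fold to 2.37-fold.

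**Figure D3:**
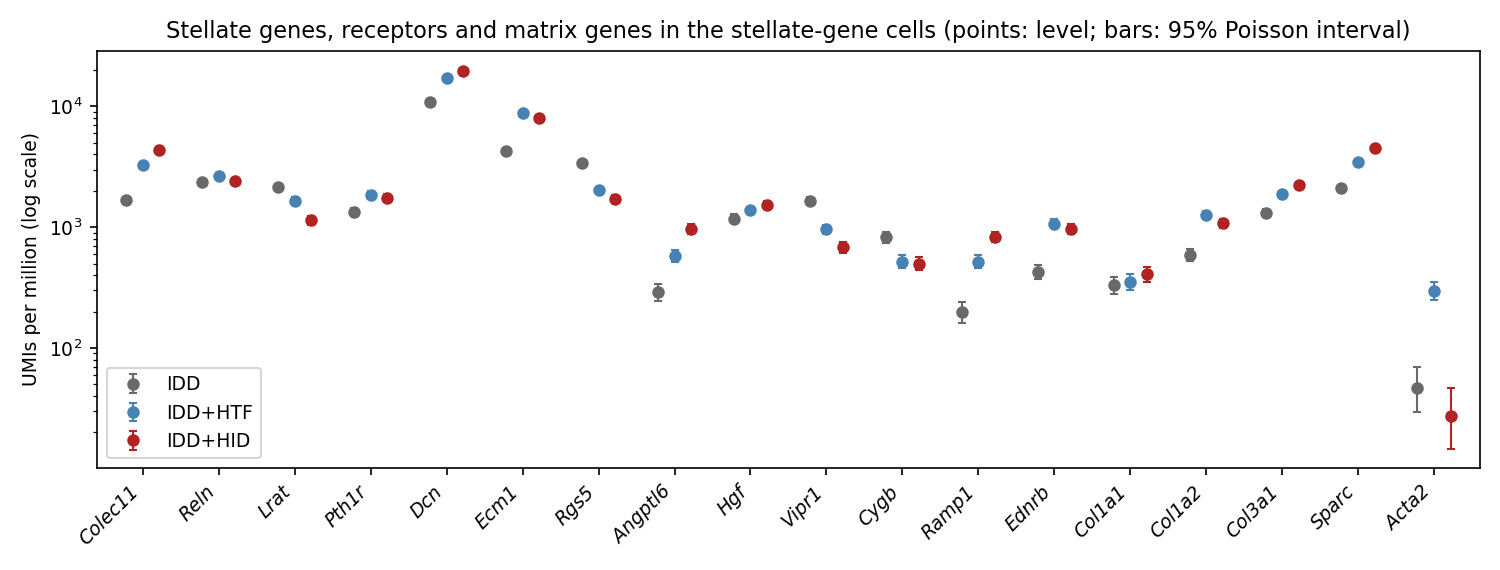
CPM (log axis) of 18 stellate, receptor and matrix genes in the stellate-gene cells of each library, with 95% Poisson intervals for counting error. Ecm1, Angptl6, Ramp1, Ednrb, Col1a2 and Sparc are lowest in IDD, while Vipr1, Cygb, Rgs5 and Lrat are highest there, and the high Acta2 point of IDD+HTF comes mostly from 1 cell.

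The BMP ligands measured in these cells were, but for 1 modulator, within 1.5-fold of IDD. Gdf2, which encodes BMP9 (ENSMUSG00000072625.1, chromosome 14, 33941039 to 33947198), stood at 742, 1048 and 894, with a ratio of 1.41-fold (1.23 to 1.62) in IDD+HTF and 1.2-fold (1.04 to 1.39) in IDD+HID over IDD. Bmp10 (ENSMUSG00000030046.6, chromosome 6, 87428994 to 87437677) stood at 326, 300.1 and 352, with ratios of 0.922-fold (0.732 to 1.16) and 1.08-fold (0.865 to 1.35). Bmp5 was at 135, 148 and 177 and Bmp2 at 129, 189 and 162, also under 1.5-fold in both comparisons, and Bmp4, at 31, 61 and 44 UMIs, was too sparse to enter either. In the sinusoidal endothelial cells Gdf2 stood at 33.4, 38.5 and 20.7 and Bmp10 at 11.7, 14.8 and 7.45, well below the stellate-gene cells. Bmp6, the ligand in the study's title, had 0 UMIs in the stellate-gene cells of every library, which allows a level of up to 6.07, 6.08 and 6.32 CPM (3 counts), against 55.1, 94.4 and 146 in the endothelial cells. Of 23 ligands and antagonists 7 were measured in IDD+HTF over IDD, with 1 higher (the extracellular modulator Twsg1, 1.59-fold), and 6 in IDD+HID over IDD, with 0 past 1.5-fold either way. Among all genes tested 16.8% were higher and 8.58% lower in the first comparison, and 26% and 14.5% in the second.

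Few genes downstream of BMP were measured, and their unadjusted values went different ways. Bambi, a decoy receptor that BMP and TGF-beta induce, was at 129, 211 and 363, 1.63-fold (1.18 to 2.26) and 2.8-fold (2.09 to 3.79) higher than in IDD. It is 1 of 5 BMP receptor genes measured, of which 2 were higher in IDD+HTF and 1 in IDD+HID, with 0 lower. Among all genes tested 16.8% were higher and 8.58% lower in IDD+HTF, and 26% and 14.5% in IDD+HID. Adjusted for length, 2 of the 5 were higher and 0 lower in IDD+HTF, and 2 and 1 in IDD+HID. Id3, a direct target of BMP-SMAD signals (ENSMUSG00000007872.3, chromosome 4, 136143497 to 136145755), was at 708, 618 and 1256, 1.77-fold (1.55 to 2.03) higher in IDD+HID and with a ratio of 0.874-fold (0.747 to 1.02) in IDD+HTF. Its transcript is short, and its length-adjusted log2 in IDD+HID over IDD was 0.13. Smad7, the inhibitory SMAD, was at 210.3, 136 and 152, 1.55-fold (1.13 to 2.14) lower in IDD+HTF. Its ratio in IDD+HID over IDD was 0.722-fold (0.527 to 0.984). Id1 was sparse at 4, 5 and 36 UMIs and Smad6 at 24, 22 and 19, and of 12 BMP-SMAD targets only Id3 and Smad7 were measured. Of these 2, 0 were higher and 1 lower in IDD+HTF over IDD, and 1 higher and 0 lower in IDD+HID over IDD. After length adjustment 0 were higher and 1 lower in the first comparison, and 0 either way in the second.

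The ferritin genes were highest in IDD+HID. Ferritin is the protein shell that stores iron, and the mRNAs of both its subunits carry an iron-responsive element in the 5′ UTR, a hairpin that regulatory proteins hold when iron is scarce, which acts on translation. These sites are shown because storage and export genes share the element and their RNA ratios are given side by side. They were found in GENCODE M21 transcripts (GRCm38) as a C, a stem of 5 bases, a 6-base loop CAGTGN in capitals, and the paired stem, on the transcript strand, each in exon 1, at chr19:9982732-9982760 (plus strand), chr7:45459779-45459807 (minus strand) and chr1:45925465-45925493 (minus strand). The same pattern occurs in 31 of 20900 genes with an annotated 5′ UTR (0.148%), and a match describes letters only.
Fth1: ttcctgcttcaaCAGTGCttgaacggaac
Ftl1: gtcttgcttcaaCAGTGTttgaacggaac
Slc40a1: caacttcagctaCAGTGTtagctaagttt

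Fth1, the ferritin heavy chain (ENSMUSG00000024661.7, chromosome 19, 9980598 to 9985098), stood at 623, 949 and 1642, 1.52-fold (1.32 to 1.77) higher in IDD+HTF than in IDD and 2.64-fold (2.31 to 3.02) in IDD+HID. Ftl1, the light chain (ENSMUSG00000050708.16, chromosome 7, 45457944 to 45459884), stood at 459, 491 and 898, with a ratio of 1.07-fold (0.888 to 1.29) in IDD+HTF and 1.96-fold (1.66 to 2.31) in IDD+HID. Slc40a1, the exporter ferroportin (ENSMUSG00000025993.10, chromosome 1, 45908068 to 45926523), stood at 218, 239 and 278, with ratios of 1.1-fold (0.837 to 1.44) and 1.27-fold (0.98 to 1.66). The interval of Slc40a1 spans no difference in both, that of Ftl1 in IDD+HTF, and free RNA could bring at most 65.2, 78.3 and 97.4 CPM of Fth1 and 58, 73.9 and 108 of Ftl1. Both ferritin transcripts are in the short bin, and the length-adjusted log2 in IDD+HID over IDD was 0.70 for Fth1 and, under 1.5-fold, 0.27 for Ftl1 and 0.30 for Slc40a1. In the endothelial cells Ftl1 stood at 822, 1255 and 2805 and Slc40a1 at 160.2, 244 and 397, and in Kupffer cells Fth1 stood at 5179, 6199.9 and 6144 and Ftl1 at 5371, 6180.1 and 8579. The difference between cell classes was not tested. Both ferritin genes have pseudogene copies that could take part of their reads, so their levels are less certain.

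Of 32 iron handling genes 9 were measured, with 2 higher in IDD+HTF (Fth1 and the iron chaperone Pcbp1, 1.79-fold) and 3 in IDD+HID (Fth1, Ftl1 and Trf), 0 lower in either, and a median log2 of 0.15 and 0.41. Of all genes tested, 16.8% were called higher and 8.58% lower in IDD+HTF, and 26% and 14.5% in IDD+HID. The higher calls of this list lie near those shares. After length adjustment 0 of the 9 were called in IDD+HTF over IDD, and 2 higher and 1 lower in IDD+HID over IDD. Trf, which encodes transferrin, stood at 220.4, 306 and 348, of which free hepatocyte RNA could bring up to 165, 202 and 211, and its direction in these cells was not read. Steap4, a ferrireductase, was at 1019, 1525 and 1505, just under 1.5-fold in both comparisons. The transferrin receptor Tfrc (5, 3 and 1 UMIs), the importer Slc39a14 (9, 7 and 4), Hmox1 (2, 5 and 7) and Nqo1 (4, 2 and 5) were too sparse for a ratio, whereas Hmox1 stood at 27.3, 50.3 and 155 in endothelial cells.

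Antioxidant genes were split. Txn1, thioredoxin, was at 125, 118 and 365, 2.91-fold (2.16 to 3.95) higher in IDD+HID, and the peroxide reductase Prdx1 at 259, 422 and 605, 2.34-fold (1.89 to 2.9) higher. Their length-adjusted log2 was 0.84 and 0.53, the latter under 1.5-fold. Gstm1, a glutathione transferase, was at 415, 363 and 255, 1.63-fold (1.29 to 2.05) lower in IDD+HID. Of 31 NRF2 targets 6 were measured, 3 higher and 0 lower in IDD+HTF over IDD and 3 and 1 in IDD+HID over IDD. Among all genes tested the shares were 16.8% and 8.58%, and 26% and 14.5%. After length adjustment these were 2 and 0, and 2 and 1. Mt1, a zinc-binding metallothionein, was at 105, 156 and 341, 3.25-fold (2.36 to 4.53) higher in IDD+HID, with 46.2%, 10.4% and 21% of its UMIs in 1 cell of each library.

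**Figure D4:**
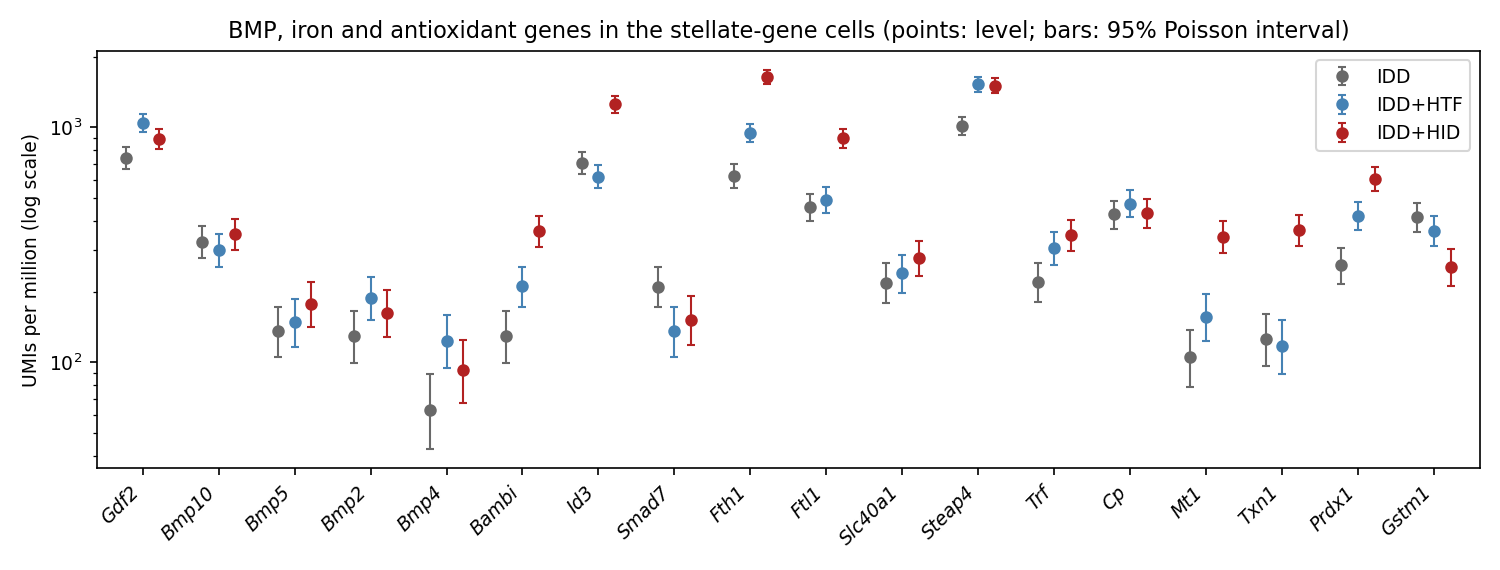
CPM (log axis) of 18 BMP, iron and antioxidant genes in the stellate-gene cells, by library, with 95% Poisson intervals for counting error. Fth1, Ftl1, Id3, Bambi, Mt1, Txn1 and Prdx1 are highest in IDD+HID, while the intervals of Bmp10, Bmp5, Slc40a1 and Cp overlap across the 3 libraries.

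Immediate early genes are transcription factors and feedback regulators switched on within minutes by signals and by tissue digestion alike. In number, though not in share of measured members, they held the most past 1.5-fold of any list in IDD+HID over IDD. Of 28, 15 were measured and 12 were higher and 0 lower, beside 26% and 14.5% of all genes tested. The list's median log2 was 1.58 against 0.08 over all genes tested. Fosb, an AP-1 subunit (ENSMUSG00000003545.3, chromosome 7, 19302696 to 19310051), was at 97.1, 197 and 521, 5.36-fold (3.92 to 7.47) higher, Fos at 378, 474 and 1288, 3.41-fold (2.89 to 4.03) higher, and Junb at 413, 389 and 1263, 3.06-fold (2.61 to 3.61) higher. In IDD+HTF over IDD 5 were higher and 1 lower of 14, beside 16.8% and 8.58% of all genes. Dusp1, a phosphatase of MAP kinases, was 2.75-fold (2.16 to 3.53) higher there and Jun 1.73-fold (1.51 to 1.99) lower. Adjusted for length, 10 of 14 were called higher and 1 lower in IDD+HID over IDD, with a median of 0.90. The adjusted calls in IDD+HTF over IDD were 3 higher and 2 lower of 13, with a median of 0.08.

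These sums lean on some cells more than others. The summed level per cell had medians of 25.0, 18.0 and 33.4 per 10000, and the middle 80% of cells ran from 7.16 to 134, from 5.40 to 169 and from 5.86 to 203. With each cell given the same weight, the list's median log2 in IDD+HID over IDD was 0.95 instead of 1.58. The same list had 18 of 27 higher in the endothelial cells and 20 of 27 in Kupffer cells of IDD+HID over IDD, beside 12.5% and 15.4% of all genes measured there. The part of digestion was not tested.

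Stress and inflammatory genes lay beside them. The shares of all genes tested were 26% higher and 14.5% lower in IDD+HID over IDD, and 16.8% and 8.58% in IDD+HTF over IDD. Heat shock genes had 8 of 9 measured higher and 0 lower in IDD+HID over IDD (median log2 0.66), among them the small chaperone Cryab at 3.25-fold (2.07 to 5.26), the co-chaperone Dnaja1 at 1.94-fold (1.53 to 2.47) and Hspa1a, which shares reads with a near-identical copy, at 1.57-fold (1.27 to 1.94), but 1 higher and 1 lower of 7 in IDD+HTF over IDD. After length adjustment 6 of the 9 were higher in IDD+HID over IDD. Unfolded protein response genes were 4 of 9 higher in IDD+HTF and 5 of 9 in IDD+HID with 0 lower in either, and after length adjustment 1 of 8 was higher in IDD+HTF and 3 higher and 1 lower of 8 in IDD+HID. They included Hspa5, the chaperone BiP, at 392, 718 and 816, and the transcription factor Xbp1, at 103, 172 and 232.

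Of 8 measured NF-kB, chemokine and cytokine genes 4 were higher and 0 lower in IDD+HID over IDD, beside 26% and 14.5% of all genes. In IDD+HTF over IDD 0 of 7 were past 1.5-fold, beside 16.8% higher and 8.58% lower of all genes. After length adjustment these were 3 higher of 8, and 1 lower of 7. Cxcl10, a chemokine for T cells (ENSMUSG00000034855.13, chromosome 5, 92346638 to 92348889), was at 30.3, 107 and 308, 10.1-fold (5.95 to 18.6) higher in IDD+HID, with 26.7%, 49.1% and 21.9% of its UMIs in 1 cell and a thinned share of 2.86%, 4.4% and 9.92% of cells. Ccl2, which attracts monocytes, was at 121, 142 and 389.9, and its ratio of IDD+HID over IDD went from 3.21-fold to 2.13-fold without the top cells. With each cell given the same weight the median log2 of this list was 0.09 instead of 0.58. Of 26 interferon response genes 11 were measured in IDD+HID over IDD, 3 higher and 3 lower, and 10 in IDD+HTF over IDD, 2 higher and 2 lower, beside the same shares of all genes. After length adjustment the calls were 1 higher and 4 lower of 10 (median log2 −0.55) and 0 higher and 3 lower of 9 (−0.54). Isg15, a ubiquitin-like protein that interferon induces, was at 74.8, 217 and 304, 2.9-fold (1.98 to 4.34) and 4.06-fold (2.81 to 5.99) higher than in IDD. It had no matched transcript length, so the length-adjusted counts of this list leave it out.

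**Figure D5:**
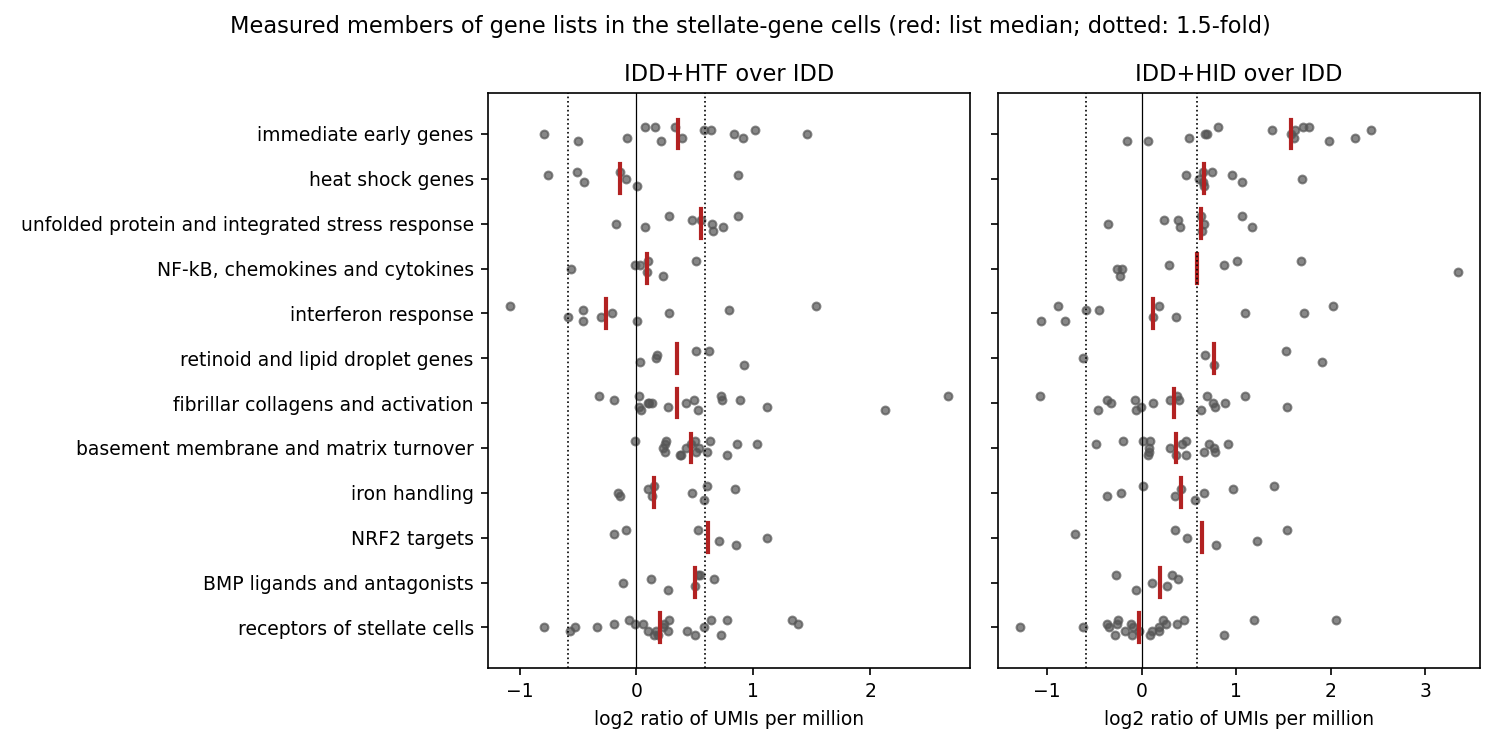
Each dot is a measured gene of a list (rows), placed by its log2 ratio of CPM (x) in the stellate-gene cells for IDD+HTF over IDD and IDD+HID over IDD, with the list median in red and 1.5-fold dotted. Immediate early genes have medians of 0.36 and 1.58, heat shock genes −0.14 and 0.66, and receptors 0.20 and −0.03.

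Other genes stood apart too, most of them outside these lists. Klf10, a TGF-beta inducible repressor (ENSMUSG00000037465.10, chromosome 15, 38291463 to 38300706), was at 999, 1209 and 349.9, 2.86-fold (2.39 to 3.42) lower in IDD+HID than in IDD and 3.45-fold (2.9 to 4.13) lower than in IDD+HTF, with a length-adjusted log2 over IDD of −1.56. Tnxb, the matrix glycoprotein tenascin-X (ENSMUSG00000033327.18), was at 202, 182 and 37.9, 5.33-fold (3.21 to 9.36) lower in IDD+HID than in IDD. Bhlhe41, a repressor in the circadian clock and the 1 of 19 clock genes measured in IDD+HID over IDD, was at 301, 442 and 112, 2.7-fold (1.96 to 3.76) lower in IDD+HID, in mice whose hour of collection is not in the labels. Cebpd, an acute phase transcription factor, was 4.9-fold (3.64 to 6.7) higher in IDD+HID than in IDD. Acaa2, an enzyme of fat oxidation, was 3.13-fold (2.26 to 4.39) higher in IDD+HTF and 4.23-fold (3.09 to 5.89) higher in IDD+HID. Rpn2, a subunit of the glycosylation enzyme, was 2.87-fold (2.17 to 3.85) higher in IDD+HTF. Gbp4, an interferon-induced GTPase, was 4.54-fold (2.7 to 8.04) lower in IDD+HTF and 3.75-fold (2.3 to 6.37) lower in IDD+HID. Hes1, a Notch target, was 2.31-fold (1.99 to 2.7) lower in IDD+HTF. Ribosomal protein genes such as Rpl30, at 32.4, 207 and 365, and Rps27, at 62.7, 320.4 and 204, also ranked high, but they share reads with many pseudogenes and are uncertain.

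The summed levels of the zonal lists were within 1.5-fold of IDD, but single members were not. Of 4 genes measured per list, the portal gene Itgb3 was higher and the central gene Sox4 lower in IDD+HTF. Of all genes tested, 16.8% were higher and 8.58% lower there. The portal gene Tagln was lower in IDD+HID, where 26% of all genes were higher and 14.5% lower. After length adjustment 1 portal gene was higher and 2 central genes lower in IDD+HTF, and 1 of each list lower in IDD+HID. Among all genes the adjusted counts were 161 higher and 131 lower of 1415, and 241 and 212 of 1425. With 4 genes per list, these calls were not read as a zonal difference. The list of portal stellate genes summed to 2170, 2875 and 2226 CPM and the central list to 1181, 1113 and 1338. Thinned to 1000 UMIs, 67.7%, 78.6% and 70.0% of cells held a portal gene and 55.2%, 45.5% and 53.1% a central gene. Without thinning, 88, 55 and 49 cells held both.

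Hgf, hepatocyte growth factor, stood at 1175, 1375 and 1519.7, and Cxcl12, the chemokine for CXCR4, at 4214, 4481 and 3602. Both were under 1.5-fold apart in each comparison with IDD, as was the neurotrophin receptor Ngfr at 261, 353 and 297. Adamtsl2, a secreted regulator of TGF-beta release, stood at 220.4, 262 and 158, Mt2, a metallothionein, had 10, 7 and 32 UMIs, and Timp1, the protease inhibitor of activated cells, had 0, 0 and 1.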

How the data were processed

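The deposited values are whole-number UMI counts per barcode and gene, one matrix per library. GRCm38 and Seurat 4 are named in the submitters' processing notes. The aligner is not given in the sources used here. Symbols and identifiers are the files' own. Positions and transcript lengths are from GENCODE M21 where the identifier and its version matched (lengths for 1425 of 1540 genes in IDD+HID over IDD). The members and gene lists were chosen with earlier results of these data known. No doublet caller was run, and doublets were limited only by the limits on Kupffer and endothelial genes. Counts were summed over cells per library and scaled to CPM. Ratios carry exact conditional binomial, levels exact Poisson and shares Clopper-Pearson 95% intervals (Python 3.11.15, scipy 1.17.1, R 4.3.3, edgeR 4.0.16 for TMM scaling). Calls are by size, 1.5-fold, among genes with at least 100 UMIs in the pair. The named genes were 36 listed genes, the 8 furthest apart each way by the bound nearest 1, and up to 4 per list, and further genes were picked with values in view. The ratio and interval code was tested on simulated data. Shares after thinning are expectations over all draws to 1000 UMIs. Some named genes are not reported here.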

Additional observations from a re-analysis of the deposited data

How the results depend on the processing

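No paired analysis was possible because each group has 1 library. Over all members, a minimum of 50 UMIs in the pair gave 864 higher and 572 lower genes in IDD+HTF over IDD, 1534 and 1154 in IDD+HID over IDD, and 915 and 774 in IDD+HID over IDD+HTF. A minimum of 200 gave 208 and 101, 475 and 296, and 277 and 215, since fewer or more genes were tested. Without cells holding 50 per 10000 of other classes' markers, IDD+HID over IDD gave 577 and 328, IDD+HID over IDD+HTF 299 and 206, and the IDD+HID share 2.00%. In stellate-gene cells, an alternative added after seeing the data, the counts were 258 and 132, 400 and 223, and 227 and 166, and the shares of IDD+HTF and IDD+HID 2.71% and 1.97%. There Acta2 turned to log2 2.67 (IDD+HTF over IDD) and −3.43 (IDD+HID over IDD+HTF), and Gdf2, Bmp10 and Ngfr (IDD+HID over IDD) to 0.27, 0.11 and 0.19. Reln, which helped to choose these cells, went to 0.044. In these cells a minimum of 50 gave 591 and 385, 784 and 519, and 476 and 389, and a minimum of 200 gave 114 and 54, 175 and 104, and 105 and 86. Without hepatocytes in the denominator the IDD+HTF share was 4.78%. In stellate-gene cells, 899 of the log2 values of single genes stayed inside their counting interval and 20 moved out of it, with 0 reversed. Of the list medians 576 stayed and 23 moved, among them with each cell given the same weight the stellate markers outside the rule (IDD+HTF over IDD) to −0.035, and with a minimum of 200 UMIs the NF-kB list (IDD+HID over IDD) to −0.20 and the contraction list (IDD+HTF over IDD) to −0.11. TMM scaling, median-of-ratios scaling and leaving out mitochondrial, ribosomal RNA, repeat and hepatocyte UMIs kept every count of stellate-gene cells within 1.5 times. Counting depth limited ratios to genes with at least 100 UMIs, which kept out Tfrc, Hmox1 and Id1, and Bmp4 from the comparisons with IDD. Length bins by the median annotated transcript, tried first, gave medians of 0.62, 0.04 and −0.14 in IDD+HID over IDD.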
